A study of Mus musculus with 4 samples.

Results

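The cadherin and protocadherin genes of mouse dorsal root ganglia (DRG), which house the sensory neurons of trunk and limbs, were compared between ganglia of 2 levels. Members were the 101 array probe sets whose single gene symbol in the platform annotation was a numbered Cdh or Pcdh symbol or a Pcdha, Pcdhb or Pcdhg symbol. They stood for 56 genes of 18193 with a probe set of their own, and each gene was read by the probe set with the highest mean intensity over the 4 arrays. Of these 56 genes, 39 lay above the filter on low signal and were tested, and 17 did not.

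The study hybridised total RNA of freshly dissected ganglia to 4 Affymetrix mouse arrays, 2 for one level (called the sample-1 level) and 2 for the other (the sample-2 level). The labels do not name the levels, the strain, the age or the sex, and give neither the number of animals nor whether both arrays of a level share an animal or pool. They name no treatment other than dissection. P-values therefore measure only scatter among arrays, and that scatter may be technical. For each probe set limma combined its own scatter (2 residual degrees of freedom) with that of probe sets of like intensity (9.71 prior degrees). An SE, interval or p is thus not the spread of that gene's own arrays alone. Values are deposited intensities on a linear scale, and a difference is the mean log2(intensity + 16) of the sample-2 level minus that of the sample-1 level, which understates the ratio of dim probe sets. Only Benjamini-Hochberg adjusted p under 0.05 over all 27022 tested probe sets in limma counted as a change, and intervals are limma's 95% intervals of single differences, not adjusted for the number of genes. In bulk RNA, fewer cells of a type and less RNA per cell cannot be told apart. With 2 arrays a level, precision is limited by their number.

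Cadherins are membrane proteins whose extracellular repeats bind calcium and hold cells together, mostly by pairing with the same cadherin on the next cell. Classical cadherins of types I and II reach the actin cytoskeleton through catenins. Protocadherins have other cytoplasmic tails, adhere more weakly and help neurites to recognise each other. Some lie alone in the genome, such as the delta-1 and delta-2 genes, while the alpha, beta and gamma genes stand in arrays from which each neuron uses a few, giving it a surface identity.

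Pcdh8 was the 1 member that changed between the levels. This delta-2 protocadherin, also called arcadlin, is known in the brain as an activity-regulated protein that draws N-cadherin from synapses into the cell. Its brightest probe set (1447825_x_at, Gene ID 18530) measured 174 and 153 at the sample-1 level against 57.3 and 61.8 at the sample-2 level. Both sample-1 arrays lay far above both sample-2 arrays, and the mean intensity was 2.75-fold lower at the sample-2 level. Pcdh8 fell by 1.25 ± 0.15 (limma's SE here and below, n = 2 arrays a level) on the log2 scale (interval -1.57 to -0.92, limma adjusted p = 0.00376). A second Pcdh8 probe set, 1417051_at, measured 107 and 99.2 against 46.9 and 41.6. It too showed no overlap, with a difference of -0.99 ± 0.16 (limma adjusted p = 0.0238), so that both probe sets of the gene passed. They were 2 of 66 tested member probe sets, against 0.622% of all tested probe sets. A name ending in _x_at marks probes that can match other transcripts, and 1417051_at does not end so. When any 1 array was dropped the difference stayed between -1.33 and -1.16 and the adjusted p between 0.00748 and 0.0192. The call was lost when no filter on low signal was used (adjusted p = 0.132) or when limma's variance prior did not follow the intensity (adjusted p = 0.305).

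Over the members as a whole, 1 of 39 tested genes passed, against 0.857% of all 13542 genes tested by their brightest probe set (and 0.561% in the lower direction alone). The median difference was -0.02 for the 39 genes and -0.01 for all genes, and the median size without its sign was 0.19 and 0.13. Of the 39 differences 18 lay above 0 and 21 below, where 48.8% of all genes lay above. In 19 genes the arrays of the levels did not overlap. The sample-2 arrays were the higher in 11 and the lower in 8, where 42.9% of all genes showed no overlap (20.6% higher and 22.3% lower). An unadjusted p under 0.05 was found for 6 of the 39, against 12.4% of all genes.

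**Figure D1:**
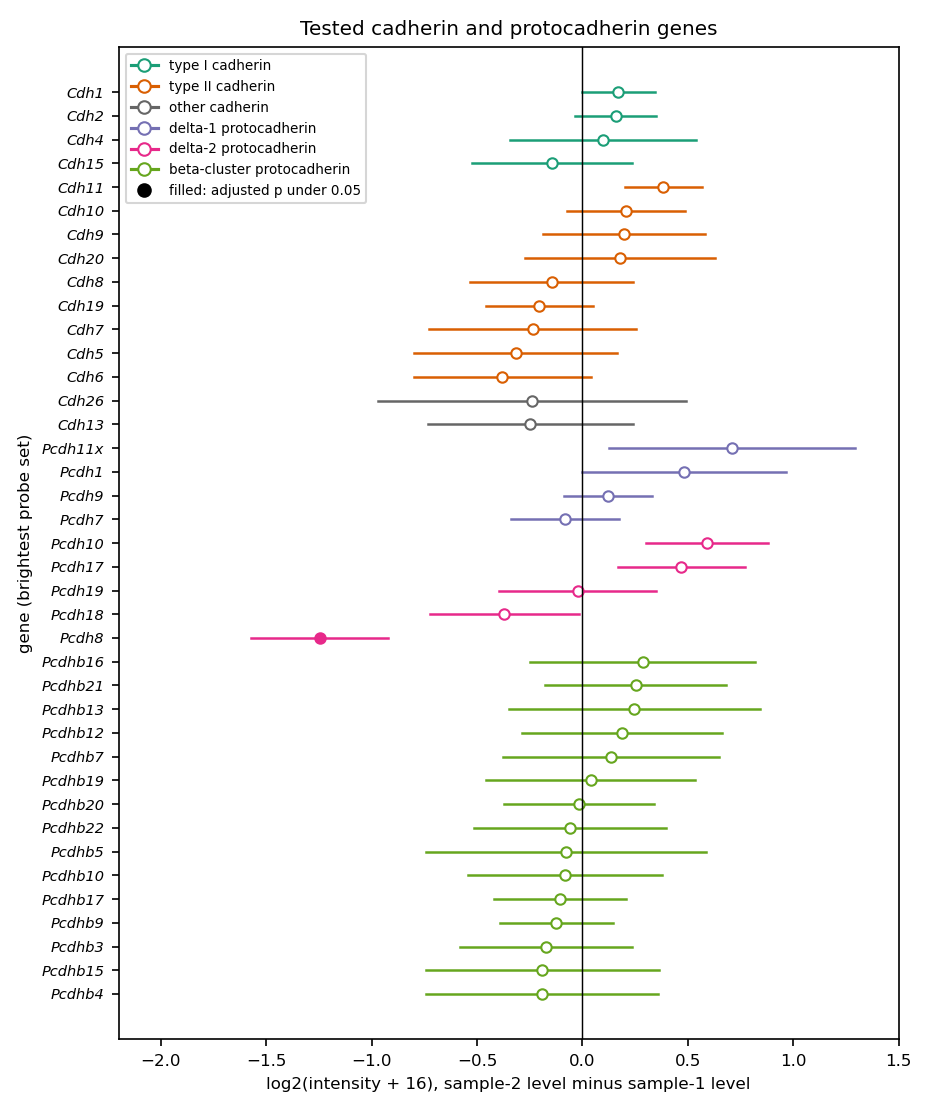
Difference between the levels in log2(intensity + 16) on the x axis for each of the 39 tested genes on the y axis, grouped by class, with limma's 95% interval as a line and a filled point where the adjusted p was under 0.05. Pcdh8 at -1.25 is the only filled point, and the intervals of Pcdh10, Pcdh17, Pcdh11x and Cdh11 lie above 0, and that of Pcdh18 below 0, without an adjusted p under 0.05.

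Some stretches upstream of the delta-2 genes are shown because these genes held the 1 change and also Pcdh10 and Pcdh17. The arrays of these 2 lay on the other side on the brightest probe set. Neither Pcdh10 (limma adjusted p = 0.0804) nor Pcdh17 (0.191) passed, and the arrays overlapped on every other tested probe set of Pcdh10. Each stretch is the 250 bases before the annotated start, read 5′ to 3′ on the gene's strand, from RefSeq on GRCm38.p6. Pcdh8 lies at chr14:79771313-79771562 on the minus strand, Pcdh17 at chr14:84443313-84443562 and Pcdh10 at chr3:45378148-45378397, both on the plus strand. Capitals mark, on either strand, the TATA box TATAAA, the GC box GGGCGG and the CCAAT box CCAAT.
Pcdh8: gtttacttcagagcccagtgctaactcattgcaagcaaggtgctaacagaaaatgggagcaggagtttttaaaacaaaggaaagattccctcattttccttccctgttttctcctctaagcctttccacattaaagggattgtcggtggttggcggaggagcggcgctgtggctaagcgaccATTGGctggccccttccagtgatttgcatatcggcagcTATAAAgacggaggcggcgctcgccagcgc
Pcdh17: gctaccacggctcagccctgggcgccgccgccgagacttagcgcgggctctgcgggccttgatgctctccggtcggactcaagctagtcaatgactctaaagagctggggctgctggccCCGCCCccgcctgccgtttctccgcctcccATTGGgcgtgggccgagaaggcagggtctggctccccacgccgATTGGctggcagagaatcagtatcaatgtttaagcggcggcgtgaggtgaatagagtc
Pcdh10: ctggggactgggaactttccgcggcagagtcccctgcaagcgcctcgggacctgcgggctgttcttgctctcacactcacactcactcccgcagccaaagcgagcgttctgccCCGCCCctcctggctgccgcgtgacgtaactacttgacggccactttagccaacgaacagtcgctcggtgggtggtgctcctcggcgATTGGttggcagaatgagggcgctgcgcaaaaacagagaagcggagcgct
In Pcdh8 the capitals are 1 CCAAT match, read as ATTGG, and 1 TATAAA close to the start. TATAAA occurs in 12.4% of the 32851 upstream windows of this length in the table and is absent from those of Pcdh17 and Pcdh10. These each hold 1 GGGCGG match, read as CCGCCC, which 32.7% of windows contain and that of Pcdh8 does not. CCAAT, in 33.8% of windows, was found once in Pcdh10 and in 2 places in Pcdh17. The windows of the other delta-2 genes, Pcdh18 and Pcdh19, hold 1 GGGCGG, 1 CCAAT and no TATAAA each. Pcdh18, whose arrays like those of Pcdh8 were lower at the sample-2 level but which did not pass, thus has the motif counts of Pcdh10. Any link between these motifs and the differences was not tested. The Pcdh8 window has 11 CG pairs, against 21 in Pcdh17, 22 in Pcdh10, 23 in Pcdh18, 16 in Pcdh19 and a median of 6 over all windows. Of the 3 windows printed none holds an E-box (CANNTG, in 66.2% of windows) or the joint PBX and HOX core TGATNNAT (in 7.68%). The searched motifs do not overlap in these windows. A match describes letters only and was not tested for binding. Of the 56 genes, 20 had an entry in the table.

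The other delta-2 protocadherins lay on both sides of 0. Their cytoplasmic tails are known to bind regulators of actin branching, and the genes are active in subsets of neurons. Pcdh10, which guides growing axons in the forebrain, measured 108 and 105 at the sample-1 level and 176 and 161 at the sample-2 level. Its arrays did not overlap, with a difference of 0.59 ± 0.13 (interval 0.30 to 0.88), but the adjusted p was 0.0804. That value belongs to its brightest probe set (1430667_at). The 5 other tested probe sets of Pcdh10 differed by -0.10 to 0.40, with overlapping arrays. Pcdh17, found at presynaptic sites in the basal ganglia, measured 272 and 218 against 383 and 308. Its second probe set measured 154 and 134 against 240 and 195. Both placed each sample-2 array above each sample-1 array, at differences of 0.47 ± 0.14 and 0.54 ± 0.14, and neither passed (adjusted p = 0.191 and 0.1296). Pcdh18 measured 83.7 and 91.2 against 59.5 and 68.7, without overlap, a difference of -0.37 ± 0.16 (interval -0.72 to -0.018, adjusted p = 0.432). Its second probe set gave -0.05. Pcdh19, the gene of an X-linked epilepsy, measured 60.1 and 64.1 against 64.6 and 57.2 and overlapped. Its 3 probe sets lay between -0.02 and 0.11. Of the 5 genes, 4 thus showed no overlap (42.9% of all genes), 2 of them lower (22.3%) and 2 higher (20.6%), and 1 passed (0.857%). An unadjusted limma p under 0.05 was found for 4 of the 5, against 12.4% of all genes. The class was chosen with earlier results of these data known.

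**Figure D2:**
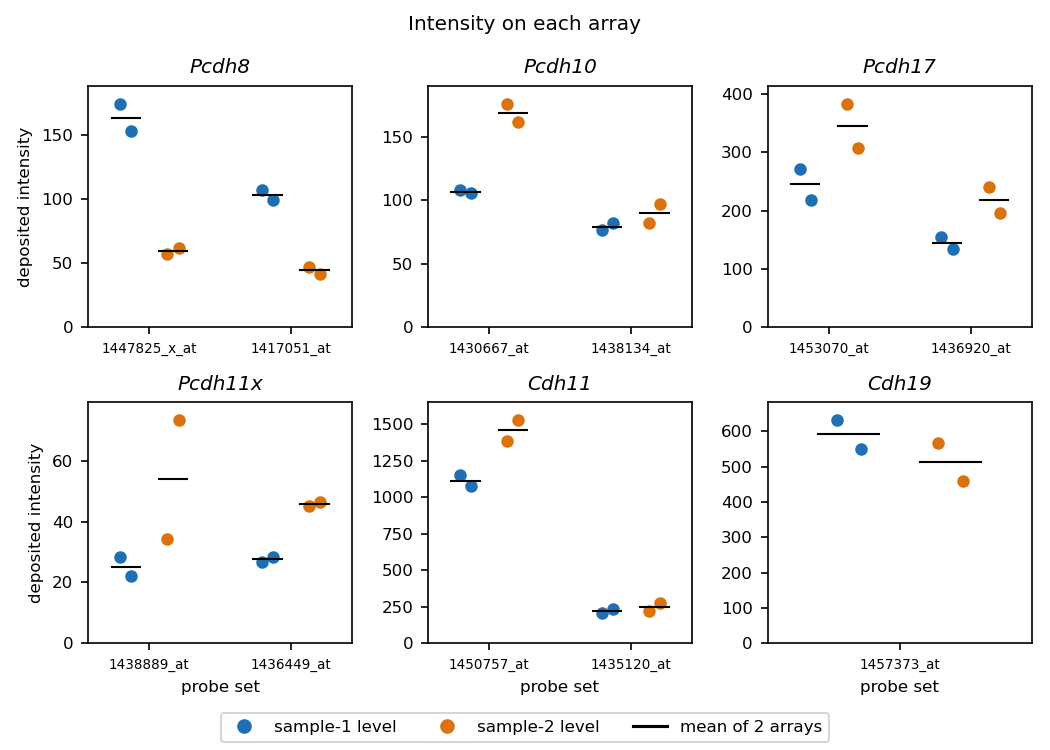
Deposited intensity on the y axis on each of the 4 arrays for 6 genes, with up to 2 probe sets of each along the x axis, the brightest first. Points are single arrays coloured by level and bars are means of 2 arrays. Both Pcdh8 probe sets sit lower, and both of Pcdh17 and of Pcdh11x higher, on the sample-2 arrays, while the arrays of Cdh19 overlap.

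Delta-1 protocadherins have longer tails that carry a site for protein phosphatase 1. Of 4 genes 0 passed the threshold (0.857% of all genes). An unadjusted p under 0.05 was found for 1, Pcdh11x (12.4% of all genes). Pcdh11x measured 28.5 and 22.0 at the sample-1 level and 34.5 and 73.6 at the sample-2 level. The last array stood well above the other sample-2 array, and the difference of 0.71 ± 0.27 (adjusted p = 0.337) was 0.30 without it. Its second probe set was tighter, at 26.9 and 28.3 against 45.2 and 46.4, a difference of 0.50 ± 0.20 (adjusted p = 0.376). Pcdh1, known from airway epithelium, measured 26.4 and 19.3 against 37.7 and 38.2 (0.48 ± 0.22, interval -0.004 to 0.97, adjusted p = 0.464). Pcdh9 measured 552 and 499 against 575 and 571, a difference of 0.12 ± 0.10. A second Pcdh9 probe set lay the other way without overlap, at 311 and 284 against 271 and 249, and the last gave 0.08. Pcdh7 overlapped at 356 and 296 against 307 and 303 (-0.08 ± 0.12), with -0.20 and 0.26 on its other probe sets.

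Type II cadherins sort motor neuron pools and brain nuclei by their combinations. Of 9 tested genes 0 passed (0.857% of all genes), and 1 had an unadjusted p under 0.05 (12.4% of all genes). This was Cdh11, a cadherin of mesenchymal cells that also occurs in neurons. It measured 1151 and 1077 against 1387 and 1531, without overlap, a difference of 0.38 ± 0.08 (interval 0.20 to 0.57, adjusted p = 0.0736). The smaller difference of its second probe set, 0.15 ± 0.13, came with overlapping arrays. Cdh10 measured 135 and 139 against 158 and 163, also without overlap, and both of its tested probe sets gave 0.21 (adjusted p = 0.61 for the brightest). Cdh6, a cadherin of the neural crest and the kidney, measured 71.4 and 59.9 against 54.7 and 39.4 (-0.38 ± 0.19, adjusted p = 0.512). Its arrays did not overlap on this probe set and did on the second, at -0.10. Cdh7 measured 29.0 and 31.5 against 24.1 and 22.4, without overlap (-0.24 ± 0.22, adjusted p = 0.771).

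Cdh8, a cadherin of cold-sensing circuits in the dorsal horn, was read differently by its probe sets. On the brightest it measured 60.99 and 56.8 against 48.3 and 55.2, lower at the sample-2 level by a difference of -0.15 ± 0.18. On the other probe sets it measured 20.2 and 26.2 against 35.5 and 39.8 (0.46 ± 0.22), and 14.6 and 16.3 against 21.7 and 20.5 (0.24 ± 0.25). None of the 3 overlapped and none passed, so the probe sets opposed each other in sign. Cdh9, Cdh20, Cdh5 and Cdh19 overlapped between the levels. Cdh9 measured 109 and 78.9 against 96.6 and 123 (0.20 ± 0.18), and Cdh20 40.4 and 31.7 against 46.8 and 38.7 (0.18 ± 0.21). Of the other type II genes on the array, Cdh18 and Cdh22 lay under the filter, at intensities of 0.15 to 20.1.

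Type I cadherins are the adhesion proteins of the classical junction. Of 4 tested genes 0 passed the threshold (0.857% of all genes) and 0 had an unadjusted p under 0.05 (12.4%). Cdh2, the N-cadherin of neural tissue, measured 657 and 639 against 705 and 744, without overlap, at a difference of 0.16 ± 0.09 (interval -0.04 to 0.35, adjusted p = 0.566). Its second probe set gave 0.12 with overlap. Cdh1, the E-cadherin of epithelia, measured 1432 and 1351 against 1508 and 1629 (0.17 ± 0.08, adjusted p = 0.469), also without overlap. The upper bound of its interval was 0.34. Cdh4, or R-cadherin, measured 100.5 and 81.4 against 126 and 75.8 and overlapped widely (0.10 ± 0.20). Its second probe set did not overlap, at 64.4 and 60.3 against 90.9 and 83.3 (0.40 ± 0.16, adjusted p = 0.379). Cdh15, the M-cadherin of muscle stem cells, measured 75.5 and 99.4 against 84.8 and 69.7 (-0.15 ± 0.17). Cdh3, the P-cadherin, was not tested, with all 4 values between 5.26 and 8.31.

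Of 5 further cadherins of other structure 2 were tested. Cdh13, which is held in the membrane by a lipid anchor and lacks a cytoplasmic tail, measured 47.3 and 75.5 against 57.6 and 39.8 (-0.25 ± 0.22), with all 3 of its tested probe sets below 0. Cdh26 measured 31.1 and 9.22 against 9.01 and 18.0 (-0.24 ± 0.33). Both overlapped. Cdh16 and Cdh17 of kidney and gut epithelium and Cdh23 of the hair cell tip link were not tested, at 0.85 to 21.0. The same held for Pcdh12, Pcdh15 and Pcdh20, at 1.21 to 18.3. A low intensity here has no call against background, because no detection calls were used.

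The beta-cluster protocadherins had 22 genes on the array, of which 15 were tested. Of these 0 passed (0.857% of all genes) and 0 had an unadjusted p under 0.05 (12.4%). The beta-cluster genes stand next to each other in the genome and resemble each other closely, so probe sets may share signal. Their differences ran from -0.19 for Pcdhb4 to 0.28 for Pcdhb16, a narrower range than that of the delta-2 genes, with a median of -0.06. Pcdhb9 measured 237 and 224 against 195 and 225 (-0.12 ± 0.12), and overlapped through the last array. Pcdhb17 measured 115 and 105 against 102 and 99.6 (-0.11 ± 0.14), without overlap. Pcdhb20 measured 66.1 and 71.8 against 65.96 and 70.03 (-0.02 ± 0.16), the smallest difference of all 39 genes. Pcdhb3 at 60.6 and 48.4 against 47.5 and 45.0 and Pcdhb10 at 32.0 and 34.9 against 30.5 and 30.9 were lower without overlap. Pcdhb16 at 24.7 and 15.9 against 26.0 and 29.8 and Pcdhb21 at 48.8 and 35.4 against 51.7 and 53.8 were higher without overlap. That made 5 of 15, 2 higher and 3 lower, where 42.9% of all genes did not overlap (20.6% higher and 22.3% lower). The arrays of the other 10 overlapped. Besides Pcdhb9 and Pcdhb20 these were Pcdhb13 (0.25), Pcdhb12 (0.19), Pcdhb7 (0.14) and Pcdhb19 (0.039) with differences above 0, and Pcdhb22 (-0.059), Pcdhb5 (-0.078), Pcdhb15 (-0.19) and Pcdhb4 (-0.19) with differences below. Second tested probe sets gave 0.031 for Pcdhb16, 0.21 for Pcdhb21 and 0.28 for Pcdhb4, whose brightest lay below 0. Pcdhb1, Pcdhb2, Pcdhb6, Pcdhb8, Pcdhb11, Pcdhb14 and Pcdhb18 were not tested, at 1.65 to 20.5.

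The alpha and gamma clusters are almost outside the reach of the rule. Their transcripts join a variable exon to constant exons shared within the cluster, and 6 probe sets carried 9 or 14 Pcdha symbols each, so no gene can be named from them. All 6 were tested and 0 passed (0.622% of all tested probe sets). Of the 6, 4 lay above 0, as did 51.1% of all tested probe sets, and 3 did not overlap, as was so for 41.2%. The brightest measured 1413 and 1332 against 1568 and 1713, without overlap, a difference of 0.25 ± 0.08 (adjusted p = 0.23). The next measured 837 and 808 against 901 and 929, also without overlap (0.15 ± 0.08, adjusted p = 0.556). The others differed by -0.24 to 0.38. The 1 gamma gene with a probe set of its own, Pcdhgc4, lay between 0.70 and 1.01 and was not tested.

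Of the 18 genes with more than 1 tested probe set, 12 had all of theirs on the same side of 0 and 6 did not. The 6 were Cdh8, Pcdh7, Pcdh9, Pcdh10, Pcdh19 and Pcdhb4. Pcdh10 had the widest spread, 0.69 between its lowest and highest probe set, and Cdh8 followed with 0.60. Pcdh8, at -1.25 and -0.99, was the gene whose probe sets passed, and Cdh10 had the closest pair.

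**Figure D3:**
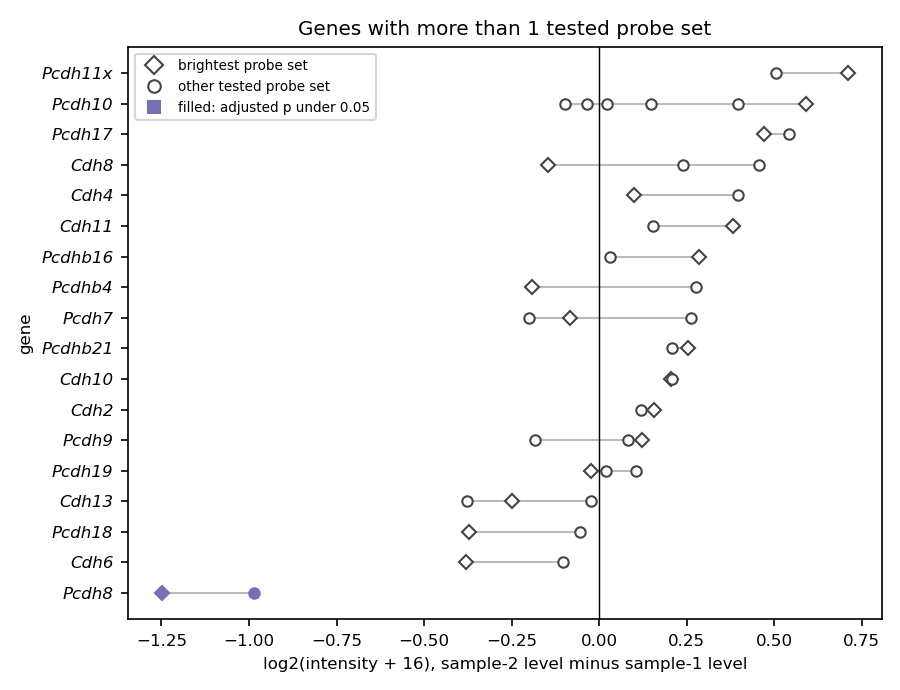
Difference between the levels in log2(intensity + 16) on the x axis for every tested probe set of the 18 genes with more than 1, a diamond for the brightest and circles for the others, filled where the adjusted p was under 0.05. Both Pcdh8 probe sets are filled and far to the left, both of Pcdh17 and of Pcdh11x lie right of 0, and those of Pcdh10 and Cdh8 spread to both sides.

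Several members are known from cell types other than neurons, so marker lists were read beside them, each gene by its brightest probe set. The lists were chosen with earlier results of these data known. Their counts beside the share of all genes are therefore no test of enrichment. Sensory neuron markers, which check the labelled tissue, summed to 37499.9 and 38634 against 40613 and 37488, with 0 of 8 past the threshold and the dimmest at a mean of 517. No marker of any list was listed at 0 on all arrays, which does not show that each was detected. The blood marker Hba-a1, at 1.64 to 5.23 on its brightest probe set with a single gene symbol, lay under the filter. Hbb-b1 had no such probe set. Probe sets with several symbols were not read for the lists, so the low value may miss globin RNA. Of 18 fibroblast markers, 16 lay below 0 and 2 above, and 7 passed, all lower, where 0.561% of all genes passed in that direction. Their summed level was 22876 and 20582 against 14999.7 and 13919. Cdh11, a mesenchymal cadherin, stood the other way and was higher on both sample-2 arrays on its brightest probe set, without passing (limma adjusted p = 0.0736). The arrays of its second probe set overlapped. Schwann cell and myelin markers had 12 of 12 below 0 and 2 past the threshold, Pmp2 and Ugt8a, against 0.561% of all genes. They summed to 25057 and 22662 against 22041 and 17068. Cdh19, a cadherin of the Schwann cell lineage, followed nearly the same order at 633 and 551 against 566 and 460. Its difference was -0.20 ± 0.12 (interval -0.46 to 0.05, adjusted p = 0.57), and the part of the Schwann cell share in it was not tested. Endothelial markers, 0 of 10 past the threshold, summed to 1119 and 1041 against 1064 and 901. Cdh5, the VE-cadherin of vessels, measured 48.9 and 55.5 against 50.2 and 29.2 (-0.32 ± 0.22, adjusted p = 0.661), with its lowest value on the array where that sum was lowest. That difference was -0.04 without this array.

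Skeletal muscle markers had 19 of 19 below 0 and 1, Myh2, past the threshold, where 0.561% of all genes passed in the lower direction. They summed to 11491 on sample-1 array 2 and to 2316, 2743 and 1879 on the others. Cdh15 had its highest value, 99.4, on that same array, and its difference was 0.02 without it. Pcdh8 measured 153 on that array and 174 on the other sample-1 array, and its difference without that array was -1.33. Besides the fibroblast and Schwann cell lists, macrophage markers lay on the same side as Pcdh8, with 8 of 9 below 0, 0 past the threshold and sums of 1116 and 1199 against 923 and 889. Neutrophil and blood markers lay on the other side, with 7 of 10 past the threshold, all higher. Of all genes 0.295% passed in that direction. The neutrophil and blood markers summed to 3427 and 4109 against 6904 and 8734. Satellite glial markers had 6 of 7 below 0 and 0 past the threshold, with sums of 12065 and 12602 against 12377 and 11543. These lists too were chosen with earlier results known, so their counts test no enrichment. The part of these cell types in the Pcdh8 difference was not tested.

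**Figure D4:**
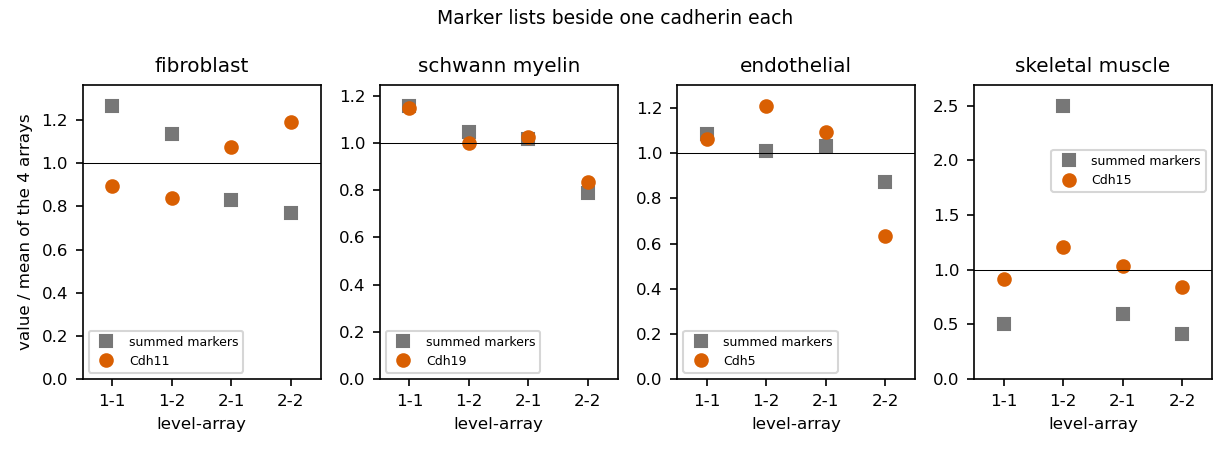
Summed marker intensity (grey squares) and the intensity of 1 cadherin (orange circles) on each array, each divided by its mean over the 4 arrays on the y axis. The x axis gives the level and array number, and each cadherin is read by its brightest probe set. Both sample-2 arrays have the higher Cdh11 values and the lower fibroblast sums, Cdh19 keeps close to the Schwann cell sum, and sample-1 array 2 carries the high muscle sum and the highest Cdh15 value.

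Genes that work with cadherins or hold cadherin-like repeats, both called partners here, were read from 5 lists. These held 61 genes in all, of which 49 were tested. Of these 1 passed, against 0.857% of all genes, and the median difference was 0.06. It was Ret, the receptor of GDNF-family ligands, whose outer part holds cadherin-like repeats. Ret measured 2576 and 2475.5 against 3222 and 3163, without overlap, and rose by 0.34 ± 0.07 (adjusted p = 0.0498). Its adjusted p lay between 0.0969 and 0.25 with each array left out in turn. Among 13 catenins and related plaque proteins 0 passed and 10 lay above 0, where 48.8% of all genes lay above. Their median difference was 0.15, and the list was chosen with earlier results of these data known. Jup, or plakoglobin, measured 251 and 246 against 412 and 339, without overlap (0.56 ± 0.12, adjusted p = 0.0662), and the catenin-like Ctnnal1 219 and 172 against 152 and 128 (-0.44 ± 0.15, adjusted p = 0.269). Another Ctnnal1 probe set gave 0.041. Ret alone passed among 16 genes of the list of larger and distant cadherins and related genes, such as Fat, Celsr and calsyntenin genes. In the other 4 lists 0 passed. Among 5 nectins and afadin 0 passed, with Nectin1 at -0.23 and Nectin2 at 0.20. Of 3 enzymes and kinases that cut cadherins or bind their tails 0 passed, with Ptk2b at -0.27 and Adam10, the sheddase of N-cadherin, at -0.18. Of 12 regulators of promoter choice in the clusters, such as Ctcf and cohesin genes, 0 passed. Wiz, a zinc finger protein that acts with Ctcf, measured 53.2 and 57.7 against 97.1 and 87.3, without overlap (0.60 ± 0.16, adjusted p = 0.151), and the DNA methyltransferase Dnmt3b lay at -0.26.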

How the data were processed

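Total RNA of mouse dorsal root ganglia was measured on 4 Affymetrix arrays. The authors deposited 1 linear intensity per probe set. All 4 arrays had a mean of 150.0 after trimming 2% at each end, from which the deposited intensity values appear scaled to a common target. The summarising software is not given in the sources used here. Array medians lay between 25.9 and 27.3 over 45101 probe sets, and arrays of a level correlated at 0.987 at both levels (0.982 to 0.986 across levels).

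Control probe sets (64) were dropped, and so were probe sets with mean log2(intensity + 16) under the 40th percentile (intensity 14.3). The remaining 27022 were fitted in limma 3.58.1 (R 4.3.3) with an intensity trend and no covariate, with 2 residual and 9.71 prior degrees of freedom. The fit code was also run on simulated arrays with independent normal errors and no filter, and no result here rests on that. Symbols came from the platform annotation, and all 56 Gene IDs matched RefSeq genes of GRCm38.p6. Text names every tested member, and of each partner list those that passed or, where none did, the leading 2 by size of difference. Members, classes and lists were chosen with earlier results of these data known, and CCAAT after the sequences were seen. Alternatives were pseudocounts of 1 and 64, other filters, scalings and probe set choices, no trend, the array number as a block, and each array left out.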

Additional observations from a re-analysis of the deposited data

How the results depend on the processing

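Of the 168 probe sets past the threshold in limma, 104 were left with arrays centred on their medians, 4 without the filter and 1 without the intensity trend, and leaving out each array gave 102 to 241 (lowest without sample-2 array 2). Pcdh8 was the 1 member past the threshold under the alternatives run, except the 3 that follow. Without the filter 0 of 56 passed in limma (4 with an unadjusted p under 0.05) and without the trend 0 of 39 (6 unadjusted). As the first alternative tests more and dimmer probe sets, its variance prior and its adjustment both differ, and which of these lost the call was not tested. Leaving out each array gave 1 member each time.

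With the array number as a replicate block 793 probe sets, 4 members (Pcdh8, Cdh11, Pcdh10 and Pcdh17) and 3 partners (Ctnna2, Jup and Ret; Ctnna2 lies outside the rule for named genes) passed. The labels do not say whether same-numbered arrays are pairs, and the main fit did not use them so. Deviations of same-numbered arrays correlated at r = 0.03 over all tested probe sets, which cannot settle whether they are. Adjusted p under the block was 1.31e-05 for Pcdh8, 0.00617 for Cdh11, 0.0172 for Pcdh10, 0.013 for Pcdh17 and 0.00282 for Jup.

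The 1 partner, Ret, was lost, leaving 0 past the threshold in limma, with a pseudocount of 1 (6 unadjusted), with centred medians (6), without the filter (7), without the trend (7), and without any 1 array (0 each time, 5 to 8 unadjusted). Its adjusted p over the alternatives ran from 0.00595 to 0.513.

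Of the 48 named members and partners, 33 kept their sign under all alternatives run. Of the other 15, 14 changed it only when an array was left out, and none of those had passed. Their differences then ran from -0.51 to 0.018 for Cdh13, -0.31 to 0.022 for Cdh15, -0.21 to 0.41 for Cdh4, -0.00056 to 0.40 for Cdh9, -0.093 to 0.046 for Pcdh19, -0.21 to 0.043 for Pcdh7, -0.022 to 0.51 for Pcdhb13, -0.43 to 0.051 for Pcdhb15, -0.15 to 0.22 for Pcdhb19, -0.065 to 0.033 for Pcdhb20, -0.20 to 0.081 for Pcdhb22, -0.43 to 0.27 for Pcdhb5, -0.057 to 0.33 for Pcdhb7 and -0.47 to 0.0022 for Nectin1. Ctnnal1 lay at 0.041 on its probe set without a suffix. The cause of these changes was not tested. With an array left out its level has 1, assumed to vary like the other level.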
